A study of Mus musculus with 24 samples.

Results

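The HoxD cluster is 1 of the 4 groups of Hox genes in the mouse, and its 9 genes (Hoxd1, Hoxd3, Hoxd4, Hoxd8, Hoxd9, Hoxd10, Hoxd11, Hoxd12 and Hoxd13) were followed here while embryonic stem cells were turned towards neuromesodermal progenitors (NMPs), the cells that give rise to spinal cord and trunk mesoderm. The members were chosen by name, and all 9 were present among the 35591 genes of the count table and the 39 Hox genes of the log2 RPKM table (reads scaled by library total and transcript length). The 24 libraries were poly(A) RNA from 6 lines of male mouse embryonic stem cells (mESC), each taken on day 0 (medium with leukaemia inhibitory factor), day 2 (basic fibroblast growth factor), day 2.5 (the first 12 h after Wnt signalling was switched on with CHIR99021) and day 3. Of these, 3 lines were Smchd1[fl/+], called wt, and 3 were Smchd1[del/+], called het. Both kinds came from Castaneus mothers and C57BL/6 fathers that carried a floxed and a deleted allele of Smchd1 with an MMTV-Cre transgene, so a wt line had the floxed copy from its father and a het line the deleted one. Each line was grown from 1 blastocyst, which limits it as a model of its genotype. The protein made by Smchd1 sits on chromatin and keeps genes silent, and comparing het with wt asked whether losing 1 embryonic copy alters Hox expression while the oocyte's own supply is intact.

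Hox genes encode transcription factors that give body segments their identity along the head-to-tail axis. Their order on the chromosome follows the order in which they are switched on and the position at which they act, so Hoxd1 acts first and farthest forward and Hoxd13 last and farthest back. In embryonic stem cells the clusters are held silent by Polycomb group proteins, and in the early trunk they are opened in the presence of Wnt signals and CDX factors. The HoxD genes are known for a second role in limbs, digits and genitalia, where Hoxd10 to Hoxd13 are strongly used.

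The cluster spanned 96.8 kb of chromosome 2 (chr2:74668310-74765142, GRCm38, + strand for all 9 genes), with Hoxd13 at its start and Hoxd1 at its end. The starts of Hoxd12, Hoxd11, Hoxd10, Hoxd9 and Hoxd8 lay 6.7, 11.2, 23.6, 29.4 and 36.3 kb from the start of Hoxd13, those of Hoxd4 and Hoxd3 both lay at 43.6 kb, and that of Hoxd1 at 94.7 kb. These are the starts of the annotation used for the counts, and the RefSeq start of Hoxd4 lies 10049 bases farther on. The identifiers of the 6 members that could be tested were ENSMUSG00000042448 (Hoxd1), ENSMUSG00000079277 (Hoxd3), ENSMUSG00000101174 (Hoxd4), ENSMUSG00000027102 (Hoxd8), ENSMUSG00000043342 (Hoxd9) and ENSMUSG00000001819 (Hoxd13). The exons of 5 members overlapped no other annotated gene. Those of Hoxd3 and Hoxd4 shared 388 bases with each other and 2225 and 1154 bases with Gm28230, a transcript on the same strand, so 62.8% and 52.3% of their exonic bases were also those of another gene. Reads from these bases may have been divided or counted more than once, and the strand was not stated for each library, so the levels of Hoxd3 and Hoxd4 are uncertain. Hoxd10 and Hoxd11 shared 104 and 455 exonic bases with Gm28309.

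The labelled states could be checked on their markers. The summed level of 9 NMP markers (T, Cdx1, Cdx2, Cdx4 and others) was 4.57 to 9.17 counts per 1000000 counts (CPM) in wt and 6.86 to 8.09 in het on day 2. On day 0 it had been higher, at 19.4 to 26.5 CPM in wt and 16.3 to 18.4 in het. On day 2.5 it was 674 to 1310 and 860 to 1117 CPM, and all 9 markers had at least 3 counts in every library of that day. The sum of 10 markers of naive pluripotency (Nanog, Klf4 and others) was 2561 to 2743 CPM in wt and 2488 to 2705 in het on day 0. It was still 316 to 442 CPM in wt and 408 to 581 in het on day 3. Smchd1 itself was lower in every het library than in every wt library of its day, with means of 66.8%, 60.1%, 66.1% and 54.7% of wt on days 0, 2, 2.5 and 3. Library totals ranged from 7.10 M counts (M, units of 1000000; wt line 2 on day 2.5) to 20.8 M, at which 3 counts stand for 0.422 to 0.144 CPM. In bulk RNA, fewer cells that use a gene and less RNA per cell cannot be told apart.

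The highest count of Hoxd3, Hoxd4, Hoxd8 and Hoxd9 in any library was on day 2.5 or day 3. Hoxd4, Hoxd8, Hoxd9 and Hoxd3 had at most 5, 30, 12 and 4 counts in any library up to day 2, and at least 63, 95, 43 and 19 counts in every library of day 3. Hoxd1 had 20 to 38 counts on day 2, when Hoxd8 had 13, 29 and 30 in wt. Hoxd13, at the other end, was present in all 24 libraries with 5 to 71 counts, and Hoxd10, Hoxd11 and Hoxd12 stayed near or at 0 throughout. The plot of the 9 genes by day shows all values.

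**Figure D1:**
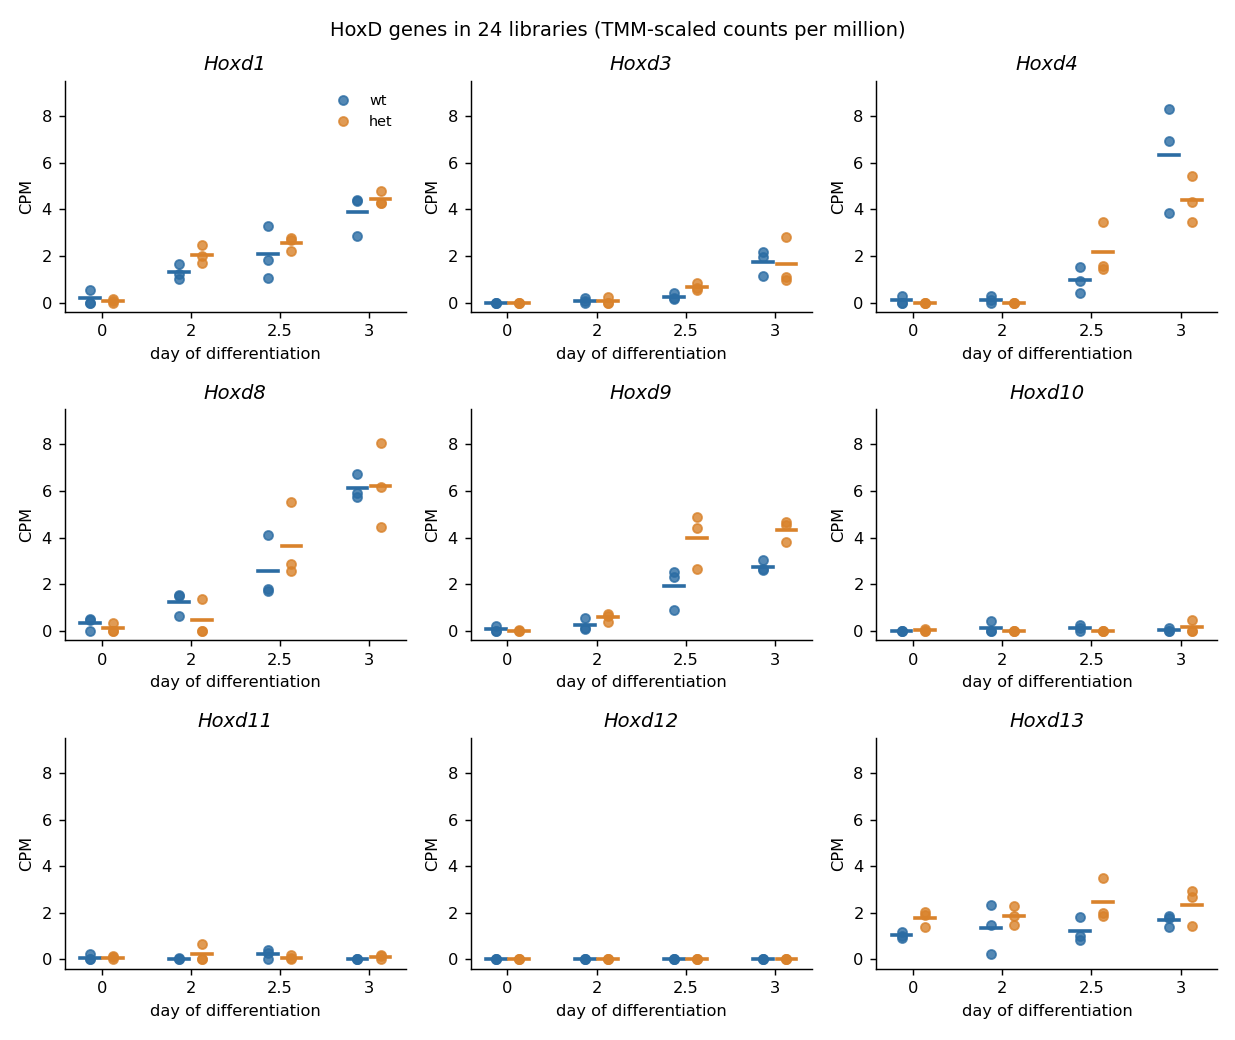
Each panel plots 1 HoxD gene, with the day of differentiation on the x axis and CPM scaled by TMM factors on the y axis, on a scale shared by all panels; points are libraries, horizontal bars are means of 3 lines, blue is wt and orange is het. On day 3 the highest means are those of Hoxd4 and Hoxd8 in wt, at 6.34 and 6.13 CPM, and of Hoxd8 and Hoxd1 in het, at 6.23 and 4.44, with Hoxd4 at 4.39, while Hoxd10, Hoxd11 and Hoxd12 lie along 0.

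Hoxd1, the member nearest the front of the axis, had 0, 9 and 0 counts in the wt lines 1 to 3 and 0, 1 and 2 in the het lines on day 0. On day 2 it had 34, 23 and 20 counts in wt and 33, 28 and 38 in het. Every library of day 2 was above every library of day 0 in either genotype. The rise was 4.89 ± 0.863 on the log2 scale in het (SE, n = 3, adjusted p = 0.000181, edgeR quasi-likelihood test with Benjamini-Hochberg adjustment over all genes, as for every adjusted p below unless another tool is named). In wt it was 2.78 ± 1.14 and did not pass the threshold of 0.05 (adjusted p = 0.0617), though DESeq2 called it (adjusted p = 0.0411), as did the fit without wt line 2 of day 0, the library with 9 counts (adjusted p = 0.00741, against wt libraries at 0). With both genotypes in one fit the change was 3.68 ± 0.815 (adjusted p = 0.00051), and Hoxd1 was higher on day 2 in 6 of 6 lines. The filter on low counts let Hoxd1 into this test through its day 2 libraries only, in either genotype. A member that enters only through its later day is chosen by its level on that day, so these values only describe the step. The same held for Hoxd9 in both genotypes and Hoxd4 and Hoxd8 in het from day 2 to day 2.5, and for Hoxd3 and Hoxd4 in wt from day 2.5 to day 3. Hoxd8 in wt from day 0 to day 2 and Hoxd13 in wt from day 2 to day 2.5 also entered so, and were not called.

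Only 3 of the 9 members in wt and 2 in het had enough counts on days 0 and 2 to be tested. Of these, 0 were called in wt and 1 in het, where 44.3% and 56.1% of all genes tested were called. With both genotypes in one fit, 60.7% of genes were called and 30.2% were called higher, so 1 member says nothing particular about the cluster. The 0 in wt stands beside 1 member at an unadjusted p under 0.05 and 1 called by DESeq2. Hoxd9 was not among those tested in het, yet its counts went from 0, 1 and 0 to 12, 11 and 6. With no filter beyond 1 count it was called (adjusted p = 0.0422). In wt, Hoxd9 went from 0, 0 and 3 to 11, 2 and 3 counts, and the groups overlapped. Hoxd8 went from 8, 8 and 0 to 13, 29 and 30 counts in wt, with log2 change 1.87 ± 0.985 (adjusted p = 0.141). In het it went from 0, 0 and 5 to 0, 0 and 21 counts, so het line 3 alone held reads on either day.

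The short stretch between the starts of Hoxd1 and its divergent neighbour is shown because the 2 genes share it. Haglr, a long non-coding RNA, runs from it in the opposite direction, and its start lies 84 bases from that of Hoxd1. These 83 bases lie on chromosome 2 (chr2:74762897-74762979, GRCm38.p6, + strand, sequence from RefSeq), and the 11 CG dinucleotides in it are in capitals.
Hoxd1, between the 2 starts: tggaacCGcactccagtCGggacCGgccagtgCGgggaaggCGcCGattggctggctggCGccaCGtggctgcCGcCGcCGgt
Haglr had 0 counts in all 3 wt lines on day 0 and 11, 0 and 1 in het. On day 2 it had 11, 26 and 5 counts in wt and 13, 13 and 7 in het, and on day 3 it had 145, 80 and 45 in wt and 98, 71 and 74 in het. Between day 2 and day 2.5 it rose in het (log2 change 2.17 ± 0.504, adjusted p = 0.00298), and in wt the change was 1.85 ± 0.690 (adjusted p = 0.0593). Hoxd1 itself was not called in that step, with changes of 0.631 ± 0.585 in wt and 0.310 ± 0.411 in het (adjusted p = 0.454 and 0.573), although it was higher on day 2.5 in 6 of 6 lines. Between day 2.5 and day 3 it went from 34, 24 and 18 counts to 96, 47 and 72 in wt and from 45, 53 and 54 to 83, 91 and 97 in het. Scaled by library, wt line 2, whose day 2.5 library was the shallowest, went from 3.30 to 2.84 CPM while the other 5 lines were higher on day 3, so the groups overlapped in wt and not in het. The log2 change was 0.973 ± 0.442 in wt (adjusted p = 0.148) and 0.765 ± 0.241 in het (adjusted p = 0.0327), and without any 1 of the 6 het libraries the adjusted p in het was 0.0512 to 0.116. In one fit of both genotypes it was 0.877 ± 0.236 (adjusted p = 0.00685).

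Between day 2 and day 2.5, the first 12 h of Wnt activation, Hoxd9 was called as higher in both genotypes and Hoxd8 and Hoxd4 in het. Time and CHIR99021 cannot be told apart here, since every library of days 2.5 and 3 had both. Hoxd9, a group 9 gene used in the trunk and hindlimb region, went from 11, 2 and 3 counts to 47, 17 and 15 in wt. In het it went from 12, 11 and 6 to 90, 51 and 99. Neither genotype had a day 2 library that reached a day 2.5 library. The log2 change was 2.81 ± 0.805 in wt (adjusted p = 0.0191) and 2.73 ± 0.480 in het (adjusted p = 0.000392). The call in wt did not hold without line 2 or line 3 of day 2 or line 1 or line 2 of day 2.5, with adjusted p from 0.0657 to 0.0923 and changes from 2.43 to 2.66. In one fit of both genotypes it was 2.76 ± 0.437 (adjusted p = 2.63e-05).

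Hoxd8, whose paralogues act in the thoracic region, went from 13, 29 and 30 counts to 32, 30 and 31 in wt, of which line 2 of day 2.5 came from the shallowest library. In het it went from 0, 0 and 21 to 113, 49 and 58. The log2 change was 1.03 ± 0.580 in wt (adjusted p = 0.206) and 3.02 ± 0.943 in het (adjusted p = 0.0179). The het call was lost with DESeq2 (adjusted p = 0.25) and without line 1 of day 2.5, where the change was 2.59 (adjusted p = 0.101). Without line 3 of day 2, the library with 21 counts, the earlier group was at 0. Both genotypes together gave 1.95 ± 0.643 (adjusted p = 0.016), and Hoxd8 was higher on day 2.5 in 6 of 6 lines.

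Hoxd4, a gene of the neck and upper trunk, had 2, 5 and 0 counts in wt and 0, 0 and 0 in het on day 2. On day 2.5 it had 17, 11 and 7 in wt and 70, 30 and 29 in het. Against a floor of 3 counts over the 3 het libraries of day 2, it was at least 35.3-fold higher on day 2.5 (adjusted p = 0.000202). In wt it was too low for the filter. With no filter beyond 1 count its log2 change was 2.87 ± 1.36 (adjusted p = 0.121). One fit of both genotypes gave 4.39 ± 0.881 (adjusted p = 0.000323). Hoxd3, which reads many of the same exons as Gm28230, had 4, 0 and 1 counts and then 3, 3 and 3 in wt. In het it had 0, 4 and 0 and then 17, 12 and 11, and every het library of day 2.5 was above those of day 2. Its change in one fit of both genotypes was 2.21 ± 0.913 (adjusted p = 0.0501), just short of the threshold.

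In the counts of calls, 1 of 4 members tested in wt was called between day 2 and day 2.5, beside 29.1% of all genes tested. In het, 3 of 5 were called, beside 44.7%. All 4 calls were of members that entered through the later day only, so nothing is read from these counts. They were rises, and 14.6% of genes in wt and 21.8% in het were called higher. With both genotypes in one fit, 3 of the 6 members tested were called, beside 49.9% of all genes, 24.8% higher and 25.1% lower. The change between genotypes was tested by an interaction term, which called 0 of 6 members and 0 of 16569 genes in the edgeR fit and 0 in DESeq2, with 1 member and 850 genes at an unadjusted p under 0.05. That member was Hoxd4, with 5.38 ± 2.01 on the log2 scale (adjusted p = 0.952), a size that depends on the 3 het libraries at 0 counts. The plot of changes between days sets the steps side by side.

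**Figure D2:**
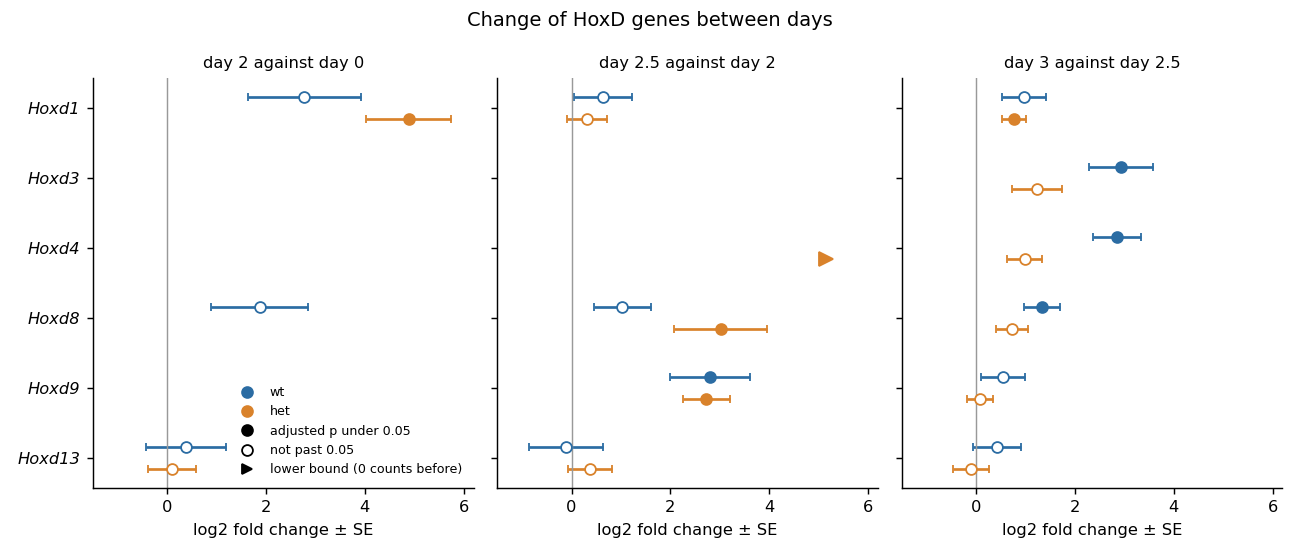
The 3 panels plot the log2 fold change of each HoxD gene between consecutive days on the x axis, with its SE from the edgeR fit, for wt (blue) and het (orange); filled symbols have an adjusted p under 0.05, and the triangle is the lower bound for Hoxd4 in het, which had 0 counts on day 2. Hoxd1 in het rises in the first step by 4.89, Hoxd9 in the second at 2.81 in wt and 2.73 in het, and Hoxd3 and Hoxd4 in wt rise in the third at 2.94 and 2.85.

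The upstream sequences of Hoxd8 and Hoxd4 are shown because both genes were called higher on day 2.5 in het and each holds matches to 1 of 2 sets of letters. For Hoxd4 they lie before the RefSeq start, inside the gene as the counts were annotated. The 250 bases before each RefSeq start were searched on both strands for the TCF/LEF letters CTTTGAA, then CTTTGAT, then CTTTGTA and last CTTTGTT, by which the factors that carry the Wnt signal hold DNA, and for the CDX letters TTTATG and also TTTATT. Matches are in capitals, and no match overlapped another.
Hoxd8 (chr2:74704365-74704614, GRCm38.p6, + strand): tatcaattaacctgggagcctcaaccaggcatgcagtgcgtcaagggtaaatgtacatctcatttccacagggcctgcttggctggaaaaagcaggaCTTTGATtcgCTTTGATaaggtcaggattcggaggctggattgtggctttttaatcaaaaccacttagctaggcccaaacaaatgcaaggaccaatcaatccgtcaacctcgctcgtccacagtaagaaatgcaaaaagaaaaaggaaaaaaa
Hoxd4 (chr2:74721728-74721977, GRCm38.p6, + strand): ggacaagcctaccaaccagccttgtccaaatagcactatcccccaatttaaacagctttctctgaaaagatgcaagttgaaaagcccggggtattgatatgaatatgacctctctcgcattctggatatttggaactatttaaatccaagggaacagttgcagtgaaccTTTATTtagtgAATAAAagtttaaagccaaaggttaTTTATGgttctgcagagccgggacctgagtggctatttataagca
Hoxd8 held 2 matches for TCF/LEF, which began 153 and 143 bases before the start, and 0 for CDX. Hoxd4 held 3 matches for CDX, at 81, 70 and 45 bases, the middle one on the other strand, and 0 for TCF/LEF. Of 32841 mouse promoter windows of this length, 14.8% held a TCF/LEF match and 25.5% a CDX match, so either is common. Hoxd9, Hoxd1, Hoxd10 and Hoxd13 held neither, Hoxd3 held 1 CDX match, Hoxd11 held 2 CDX matches before the first of its 2 starts, and Hoxd12, which had 0 counts, held 1 TCF/LEF match. A match is a run of letters and not a shown binding site.

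In the third step, from day 2.5 to day 3, Hoxd3, Hoxd4 and Hoxd8 were called in wt and Hoxd1 in het. In wt, Hoxd4 went from 17, 11 and 7 counts to 151, 137 and 63, by 2.85 ± 0.486 on the log2 scale (adjusted p = 0.00391). Hoxd3 went from 3, 3 and 3 to 47, 32 and 19, by 2.94 ± 0.655 (adjusted p = 0.0125). Hoxd8 went from 32, 30 and 31 to 129, 95 and 111, by 1.33 ± 0.370 (adjusted p = 0.0298). The groups did not overlap for any of the 3 genes in wt. The Hoxd3 call was lost without line 1 or line 2 of day 3 (adjusted p = 0.0537 and 0.0515), and the Hoxd8 call without any library except line 2 of day 2.5 (adjusted p from 0.0599 to 0.1).

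In het the same 3 genes were not called. Hoxd4 went from 70, 30 and 29 counts to 106, 73 and 87, by 0.989 ± 0.357 (adjusted p = 0.0556). Hoxd3 went from 17, 12 and 11 to 55, 21 and 22, by 1.24 ± 0.509 (adjusted p = 0.0874). Hoxd8 went from 113, 49 and 58 to 157, 95 and 125, by 0.726 ± 0.323 (adjusted p = 0.112). With the line as a replicate block, Hoxd4 and Hoxd8 passed the threshold in het (adjusted p = 0.0186 and 0.0269). Each of these 3 genes was higher on day 3 in 6 of 6 lines.

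Hoxd9 was not called in this step. It had 47, 17 and 15 counts in wt and 90, 51 and 99 in het on day 2.5. It had 66, 43 and 44 counts in wt and 91, 81 and 92 in het on day 3, with log2 changes of 0.542 ± 0.449 and 0.0821 ± 0.266 (adjusted p = 0.43 and 0.848). It was higher on day 3 in 3 of 3 wt lines, where the groups did not overlap (means 1.92 and 2.77 CPM), and in 2 of 3 het lines, and over both genotypes the change was 0.301 ± 0.246 (adjusted p = 0.353). In all, 3 of 6 members tested were called in wt, all as rises, beside 19.1% of all genes (8.99% higher and 10.1% lower). Of these 3, Hoxd3 and Hoxd4 entered through day 3 only. In het, 1 of 6 was called, beside 29.8% of all genes. With the line as a replicate block it was 3. The share of all genes under the block is not reported here, so nothing is read from that count. One fit of both genotypes called 4 of 6 (Hoxd1, Hoxd3, Hoxd4 and Hoxd8), beside 39.8% of all genes and 19.2% called higher. The interaction with genotype called 0 of 6 members and 0 of 16486 genes (0 in DESeq2), with 1 member, Hoxd4 at -1.85 ± 0.621 (adjusted p = 0.999), and 635 genes at an unadjusted p under 0.05. The interaction was below 0 for all 6 members tested, and above 0 for 8344 of the 16486 genes. It was above 0 for 2 of 9 HoxA, 1 of 9 HoxB and 2 of 7 HoxC genes, so this sign was not particular to HoxD. It starts from day 2.5, when the mean of each of the 6 members was higher in het.

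Levels between genes can be set side by side per length, in RPKM, over all 6 lines of a day. On day 3 the order was Hoxd8 (2.23 ± 0.436), Hoxd1 (2.21 ± 0.373), Hoxd4 (1.80 ± 0.636), Hoxd9 (1.65 ± 0.443), Hoxd13 (0.804 ± 0.256) and Hoxd3 (0.40 ± 0.177), followed by Hoxd10 and Hoxd11 near 0 and Hoxd12 at 0 (SD, n = 6). The ranges of the first 4 overlapped from one to the next. Those of Hoxd9 and Hoxd13 did not, with 1.19 as the lowest value of Hoxd9 and 1.16 as the highest of Hoxd13. On day 2.5 the order began with Hoxd9 (1.37 ± 0.680), Hoxd1 (1.23 ± 0.422) and Hoxd8 (1.12 ± 0.521), all overlapping. On day 2 Hoxd1 had the highest mean (0.855 ± 0.266) and overlapped the next, Hoxd13 (0.624 ± 0.299), and on day 0 Hoxd13 did (0.516 ± 0.165), with its lowest library at 0.350 and the next gene, Hoxd8, at no more than 0.171.

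**Figure D3:**
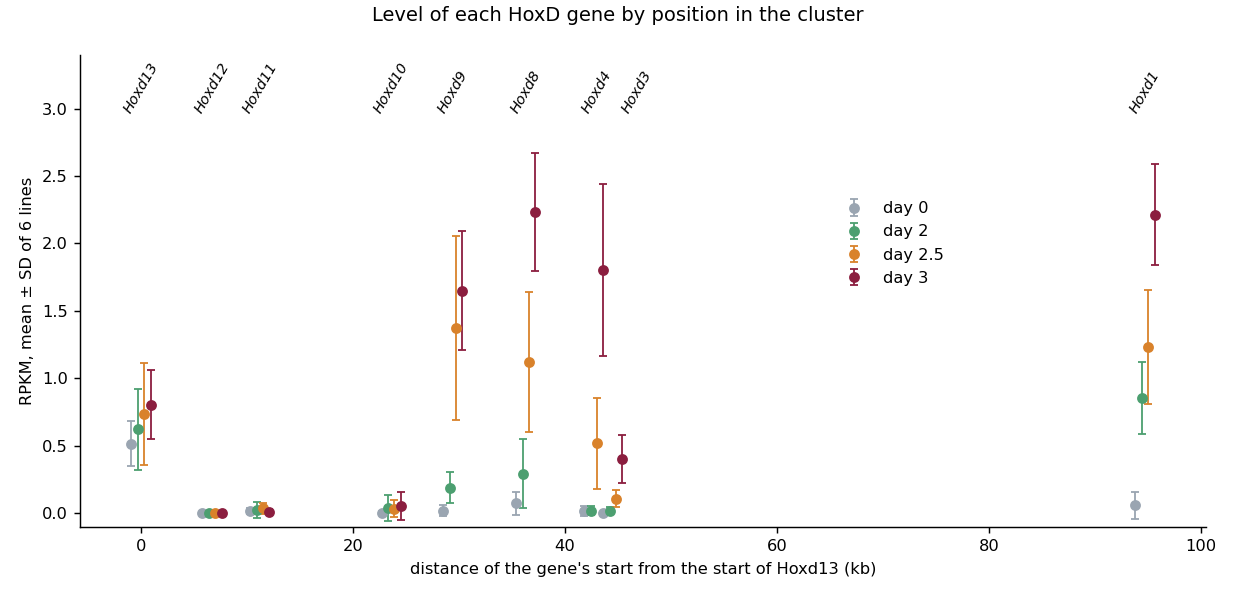
The x axis is the distance in kb of each gene's start from the start of Hoxd13 and the y axis is the level in RPKM, as the mean ± SD of 6 lines, with 1 colour per day; days, and the coinciding starts of Hoxd3 and Hoxd4, are drawn slightly apart. On day 3 Hoxd9, Hoxd8, Hoxd4 and Hoxd1 are at 1.65 to 2.23 RPKM, Hoxd13 is at 0.804, Hoxd3, at the same place as Hoxd4, is at 0.40, and Hoxd10, Hoxd11 and Hoxd12 are near or at 0.

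Hoxd13, which patterns digits, genitalia and the hindmost body, was not called between any consecutive days. Its counts were 16, 20 and 13 in wt and 36, 30 and 21 in het on day 0, and 39, 31 and 23 in wt and 28, 62 and 54 in het on day 3. The log2 changes between consecutive days ranged from -0.112 to 0.42 over both genotypes, and each had an adjusted p of at least 0.534. The lowest library was wt line 1 of day 2 with 5 counts, beside 44 and 30 in lines 2 and 3. On day 0 its mean was 0.516 ± 0.165 RPKM and that of its paralogue Hoxc13 was 0.298 ± 0.200, with ranges that overlapped (SD, n = 6).

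The 250 bases before the RefSeq start of Hoxd13 are shown because they hold the most CG dinucleotides of the 9 genes, and CG-rich starts are where Polycomb proteins are known to sit in stem cells. The CG dinucleotides are in capitals, and the positions are chr2:74667975-74668224 (GRCm38.p6, + strand).
Hoxd13: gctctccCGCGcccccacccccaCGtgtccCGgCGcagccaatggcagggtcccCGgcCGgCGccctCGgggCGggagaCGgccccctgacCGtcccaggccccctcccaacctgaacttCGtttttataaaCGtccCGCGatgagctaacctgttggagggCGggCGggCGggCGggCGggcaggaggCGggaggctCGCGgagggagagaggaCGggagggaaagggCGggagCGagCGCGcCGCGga
It held 31 of them at 74.4% G and C, more than 94.8% of all promoter windows of this length, whose median was 6. Hoxd1 held 24 and Hoxd10 20, whereas Hoxd8 held 6 and Hoxd4 held 3, fewer than the 11 in the 83 bases shown for Hoxd1. Hoxd10, with its 20, was near 0 in every library.

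Hoxd10, Hoxd11 and Hoxd12, which pattern the lumbar region, the forearm and the digits, had too few counts for the filter in every comparison. With no filter beyond 1 count, Hoxd10 and Hoxd11 were not called in any, and the lowest adjusted p was 0.141, for Hoxd10 from day 2.5 to day 3 in het, where 1 library held reads. Hoxd12 had 0 counts in all 24 libraries, which allows a level of up to 0.00713 CPM over the libraries together (3 counts, counting error only). Hoxd10 had 26 counts in all, with 9 in wt line 3 of day 2 and 10 in het line 2 of day 3. Hoxd11 had 39 in all, with 11 in het line 2 of day 2 as the highest. Neither gene had 3 counts in all libraries of any group. Markers of lateral plate and limb mesoderm were read at a low level in every group, with a summed level of 4.73 to 30.3 CPM for 8 genes, and Hand2, Tbx5, Gata5 or Osr1 was at 0 in all 3 libraries of some groups. Their sum was lower in het without overlap on day 0 (8.70 to 9.25 CPM, against 10.26 to 12.65 in wt). So it was on day 2 (4.73 to 5.45, against 6.88 to 9.45 in wt), and the groups overlapped on days 2.5 and 3.

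Between the genotypes, 0 members were called on any day, and the share of all genes called was 0% on day 0, 0.551% on day 2 (0.0519% higher in het), 0% on day 2.5 and 0.00638% on day 3, and 0.00544% with the days of a line summed, a single gene that was lower. Of the 9 members, 1, 3, 6 and 6 had enough counts for the test on these days. On day 2.5 the mean of each of the 6 was higher in het, though Hoxd3 and Hoxd4 entered the test through the het libraries only, and the 3 at an unadjusted p under 0.05 were Hoxd3, Hoxd4 and Hoxd9. On day 3 only Hoxd9 was under that value, and on days 0 and 2 the number was 0. DESeq2 called 0 members on each day as well, beside 82, 233, 3 and 116 genes on days 0, 2, 2.5 and 3. Over all genes tested, 1649, 1576, 822 and 1432 had an unadjusted p under 0.05 on days 0, 2, 2.5 and 3.

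Among the HoxD members, only Hoxd9 had groups that did not overlap on both later days, and genes outside the cluster were not compared for this. On day 2.5 it was at 2.53, 2.34 and 0.881 CPM in wt lines 1 to 3 and 4.42, 2.67 and 4.88 in het. On day 3 it was at 3.02, 2.60 and 2.67 CPM in wt and 4.67, 3.81 and 4.54 in het. In either case every het library was above every wt library. The log2 difference was 1.09 ± 0.423 on day 2.5 (adjusted p = 0.907) and 0.634 ± 0.256 on day 3 (adjusted p = 0.511). With the counts of the 4 days of a line summed it was 1.00 ± 0.257 (adjusted p = 0.365), from 124, 62 and 65 counts in wt to 193, 144 and 197 in het. Hoxd13 also had an unadjusted p under 0.05 for the sum (0.632 ± 0.239, adjusted p = 0.478). So 2 of 6 members tested did, beside 1663 of 18371 genes. In the sums Hoxd1, Hoxd9 and Hoxd13 were higher in every het than in every wt line, beside 7.78% of all genes. For Hoxd1 the margin was below the digits given, with wt line 1 and het line 1 both at 2.167 CPM by library totals. The Hoxd9 sum passed the threshold in 1 of the fits that left out a line, the one without wt line 1 (1.28, adjusted p = 0.0237), and lay at 0.862 to 1.28 in all of them. DESeq2 gave an adjusted p of 0.0508 for it, and called 145 genes in this comparison.

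On day 2.5 Hoxd3 and Hoxd13 were also higher in every het than in every wt library. So 3 of 9 members, of which 6 were tested, did not overlap with het higher. Of all genes tested, 6.36% did so in that direction and 5.26% with het lower. Hoxd3 had 3 counts in each wt library and entered the test through its het libraries only, so nothing is read from this count. Hoxd3 was at 0.25 ± 0.141 CPM in wt and 0.668 ± 0.151 in het (log2 difference 1.57 ± 0.710, adjusted p = 0.907). Hoxd13 was at 1.22 ± 0.527 CPM in wt and 2.45 ± 0.911 in het (0.955 ± 0.450, adjusted p = 0.907). Hoxd4 was at 0.946 ± 0.551 CPM in wt and 2.15 ± 1.12 in het, with an overlap (1.28 ± 0.569, adjusted p = 0.907). Without 1 library, the day 2.5 log2 difference ranged from 0.709 to 1.44 for Hoxd9, from 1.31 to 1.94 for Hoxd3, from 0.741 to 1.67 for Hoxd4, from 0.601 to 1.37 for Hoxd13, from 0.149 to 1.04 for Hoxd8 and from 0.0495 to 0.806 for Hoxd1. None was called in any of these fits. The p-values measure the spread between 3 lines of each genotype.

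On day 3 Hoxd1 was at 3.87 ± 0.890 CPM in wt and 4.44 ± 0.296 in het (0.185 ± 0.260, adjusted p = 0.872). Hoxd4 was at 6.34 ± 2.29 CPM in wt and 4.39 ± 1.01 in het (-0.548 ± 0.305, adjusted p = 0.631). Hoxd3 was at 1.75 ± 0.526 and 1.63 ± 1.03 CPM (-0.125 ± 0.487), and Hoxd8 at 6.13 ± 0.531 and 6.23 ± 1.80 CPM (0.00894 ± 0.245). Only Hoxd9 did not overlap on day 3, beside 8.52% of all genes with het higher. On day 0 it was Hoxd13 alone (1.04 ± 0.131 CPM in wt, 1.77 ± 0.343 in het), beside 9.95%. On day 2 it was Hoxd1 alone (1.30 ± 0.341 and 2.05 ± 0.397 CPM), beside 8.30%. None of the 9 members was lower in every het library than in every wt library on any day, beside 5.26% (day 2.5) to 7.50% (day 2) of all genes tested. A member with a wt library at 0 counts could not be lower, as held for all but Hoxd13 on day 0. Nothing is read from this. With 3 lines against 3 the smallest p of an exact permutation test is 0.1. The plot of het against wt gives all tested members.

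**Figure D4:**
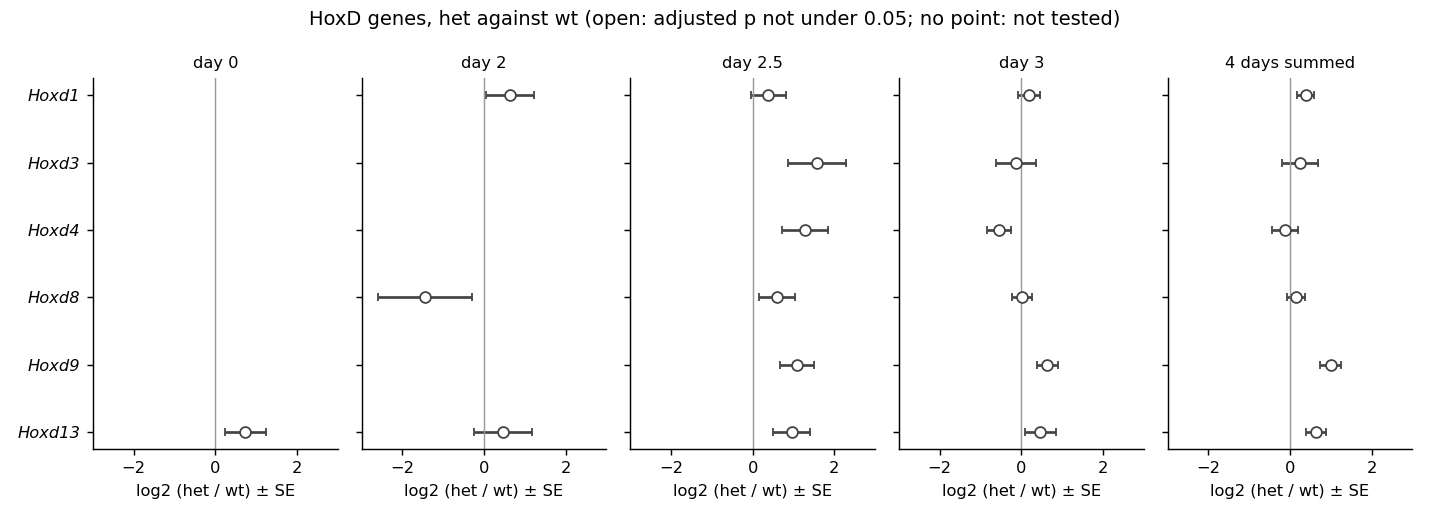
The 5 panels plot the log2 ratio of het to wt with its SE (x axis) for each HoxD gene, on each day and with the counts of the 4 days of a line summed; all symbols are open because 0 had an adjusted p under 0.05, and a missing symbol is a gene with too few counts for the test. On day 2.5 the 6 points lie between 0.382 and 1.57, on day 3 between -0.548 and 0.634.

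Marker lists were set beside these values. The summed level of 18 endoderm markers (Col4a1, Sparc, Lama1 and others) was 2721 to 4243 CPM in wt and 1646 to 2251 in het on day 0, and 8059 to 16000 and 5043 to 6850 on day 2. On day 2.5 it was 5425 to 13850 and 5616 to 8324 CPM, and on day 3 it was 5527 to 10790 and 4242 to 6885. At least 14 of the 18 had 3 counts in every library of each group, and Afp or Ttr was at 0 in all 3 libraries of some groups. The groups did not overlap on days 0 and 2 and overlapped on days 2.5 and 3. The sum of 5 epiblast markers (Fgf5, Otx2 and others) was 1830 to 1892 CPM in wt and 2000 to 2107 in het on day 2 and 245 to 327 and 337 to 447 on day 3, without overlap, and overlapped on days 0 and 2.5. All 5 had 3 counts in every library of each group except wt on day 3, where 4 did, and none was at 0 in all 3 libraries of a group. NMP marker sums overlapped between genotypes on days 2.5 and 3, at 546 to 873 CPM in wt and 509 to 989 in het on day 3. The part of endoderm or epiblast RNA in the Hoxd9 difference was not tested. With every library thinned to the total of the smallest, the Hoxd9 difference was 0.85 ± 0.475 on day 2.5, 0.545 ± 0.333 on day 3 and 1.05 ± 0.262 with the days summed (adjusted p = 0.912, 0.658 and 0.334).

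Within the Hox family, the share held by HoxD was higher on day 0 than on the later days. Its 9 genes summed to 0.661 ± 0.167 RPKM in wt and 0.750 ± 0.0162 in het on day 0, which was 24.8% and 37.1% of the sum of all 39 genes. Hoxd13 alone, at 0.516 RPKM over the 6 lines, was most of the day 0 sum. On day 2 the 9 genes summed to 1.89 ± 0.378 RPKM in wt and 2.25 ± 0.210 in het, which was 11.87% and 15.35%. On day 2.5 they summed to 3.93 ± 1.51 and 6.40 ± 1.10 RPKM, which was 3.54% and 5.67%, and on day 3 to 8.75 ± 0.788 and 9.59 ± 1.02, or 6.74% and 7.97% (SD, n = 3). HoxA and HoxB held 56.2% and 36.3% of the sum in wt on day 2.5. In calls between day 2 and day 2.5, 6 of 8 HoxA, 8 of 8 HoxB and 2 of 4 HoxC genes tested were higher in wt and 7 of 8, 8 of 9 and 2 of 3 in het, beside the 1 of 4 and 3 of 5 of HoxD and 14.6% and 21.8% of all genes. Of these calls, 3, 5 and 2 in wt and 5, 8 and 2 in het were of genes that entered through the later day only, as all those of HoxD did, so nothing is read from the counts.

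Set beside their paralogues on day 3, HoxD genes ranged from below to above the other members of their groups. Hoxd1 was at 2.21 RPKM against 20.8 ± 7.58 for Hoxb1. Hoxd3 was at 0.40 against 2.68 ± 0.693 for Hoxa3 and 3.18 ± 0.829 for Hoxb3, and its highest library (0.674) was below their lowest (1.76). Hoxd4 was at 1.80, with Hoxa4 at 0.719 ± 0.296, Hoxb4 at 2.04 ± 0.815 and Hoxc4 at 2.91 ± 1.18, and its range overlapped all 3. Hoxd8 was at 2.23 beside 2.08 ± 0.969 for Hoxc8 and 4.80 ± 1.33 for Hoxb8. Hoxd9 was at 1.65, above Hoxa9 (0.656 ± 0.205) and Hoxc9 (0.522 ± 0.129) and below Hoxb9 (12.8 ± 3.55) in every library. Hoxd13 was at 0.804 beside 0.942 ± 0.362 for Hoxc13, and Hoxa13 and Hoxb13 were at 0.263 ± 0.137 and 0.0668 ± 0.0697 (SD, n = 6).

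**Figure D5:**
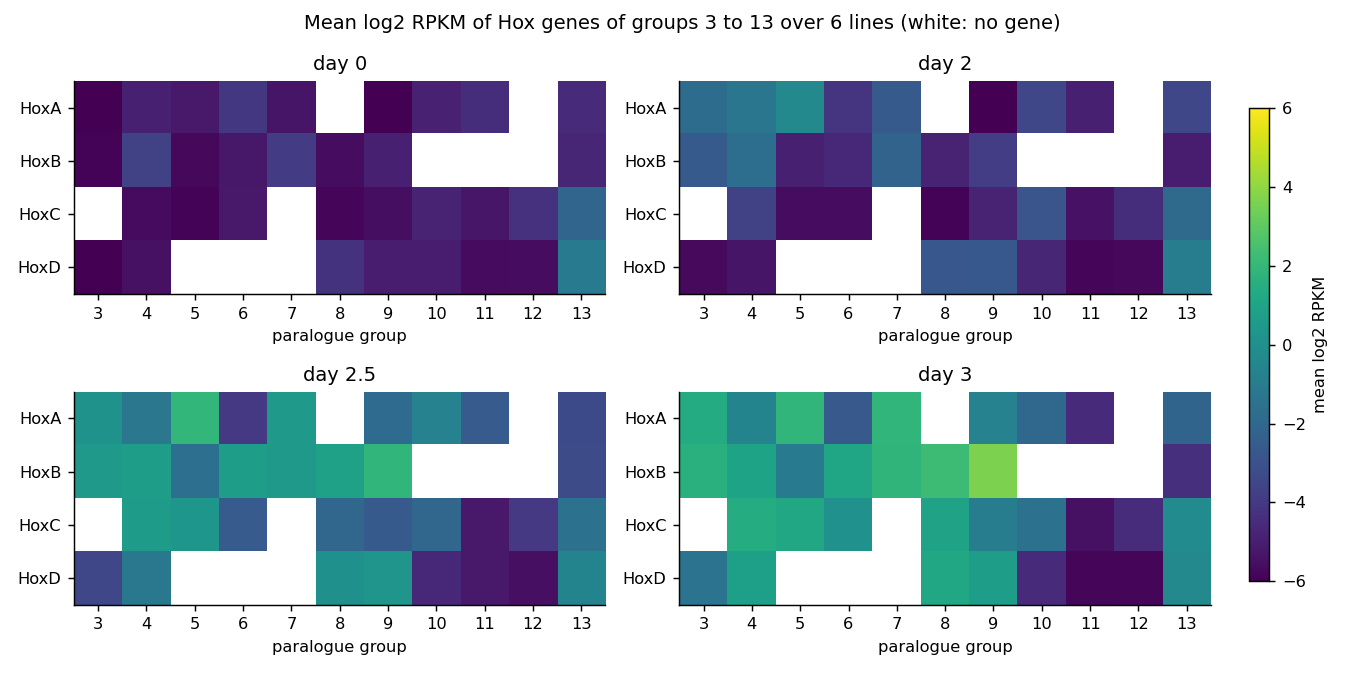
The 4 panels are the days, with the 4 clusters as rows and paralogue groups 3 to 13 as columns; colour gives the mean log2 RPKM over 6 lines, in which genes without counts take the value of 0.898 counts (median), and white marks a group with no gene in that cluster. In the HoxD row Hoxd13 is the brightest on day 0, and Hoxd8, Hoxd9 and Hoxd4 are bright on day 3 while groups 10 to 12 stay dark.

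Of 30 annotated genes within 1 Mb, 12 had 0 counts in all libraries and 9 were tested in wt and 10 in het between day 2 and day 2.5. Lnpk, on the Hoxd13 side, and Chn1 fell in both genotypes, by 1.04 ± 0.186 and 1.06 ± 0.186 on the log2 scale in wt (adjusted p = 0.00128 and 0.0011). Mtx2, on the Hoxd1 side, rose by 0.547 ± 0.142 in wt and 0.530 ± 0.098 in het (adjusted p = 0.0113 and 0.000593). Nfe2l2 fell and Atp5g3 rose in both genotypes, and Lnpk had risen in both between day 0 and day 2 (0.885 ± 0.148 in wt). In all, 2 flanking genes were called higher and 4 lower in wt and 4 and 4 in het, where Haglr and Gm28230, which entered through day 2.5 only, were among the higher, beside 14.6% and 14.5% of all genes in wt and 21.8% and 22.9% in het. Gm28230, which shares exons with Hoxd3 and Hoxd4, had 7, 13 and 3 counts on day 2.5 and 149, 155 and 73 on day 3 in wt, where Hoxd4 had 17, 11 and 7 and then 151, 137 and 63. Hoxd3os1, on the other strand, had at most 11 counts in a library.

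The other genes of the pathway were followed in 3 lists. Of 18 signals and factors that act on trunk Hox genes, 9 rose and 3 fell in wt between day 2 and day 2.5, and 10 and 3 in het, beside 14.6% of all genes higher and 14.5% lower in wt and 21.8% and 22.9% in het. Of the rises, 5 of 9 in wt and 5 of 10 in het were of genes that entered through day 2.5 only, T and Cdx4 among them. These were chosen by their level on that day, so nothing is read from the counts. T rose by 9.40 ± 0.520 in wt, Cdx1 by 8.26 ± 0.293, Cdx4 by 7.52 ± 0.591 and Cdx2 by 6.55 ± 0.232 on the log2 scale, all transcription factors of the tailbud, and Wnt8a by 3.73 ± 0.331. Rarg, a retinoic acid receptor, and Acvr2b, which receives GDF11, fell by 1.29 ± 0.226 and 0.893 ± 0.258. Gdf11, a signal known to switch on the most posterior Hox genes, had a change of 0.074 ± 0.266 (adjusted p = 0.861).

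Hox proteins bind DNA together with PBX and MEIS cofactors. Of these 9 genes, 1 rose and 3 fell in wt and 1 rose and 4 fell in het in the same step, with medians of -0.263 and -0.506, and nothing is read from these counts beside the 29.1% and 44.7% of all genes called. Pbx3 fell by 0.61 ± 0.171 in wt and 0.852 ± 0.144 in het, and Meis3 rose by 1.26 ± 0.348 and 1.02 ± 0.299. Of 16 Polycomb and Trithorax genes, 1 rose and 6 fell in wt and 3 rose and 6 fell in het, with medians of -0.178 and -0.186, beside the same shares of all genes. Jarid2 fell by 1.14 ± 0.126 in wt and 1.33 ± 0.090 in het, and Ezh1 by 1.20 ± 0.207 and 1.53 ± 0.119, both parts of Polycomb complexes that mark histone H3. Between genotypes the 3 lists had 1 call over the 4 days. Cyp26a1, which breaks down retinoic acid, was lower in het on day 2, by 1.51 ± 0.216 (adjusted p = 0.00971), and its difference on days 2.5 and 3 was -0.741 ± 0.322 and -0.736 ± 0.189 (adjusted p = 0.907 and 0.302).

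Genes other than the 39 Hox genes, though some lie inside a Hox cluster as Gm28230 and Hoxb3os do, whose pattern was most like that of a member were found by Pearson's r of log2(CPM + 0.5) over the 24 libraries, as a description, since libraries share days and lines. For Hoxd4 the nearest was Gm28230 (r = 0.989), which shares exons with it and with Hoxd3, so the same reads may count in both. For Hoxd3 it was the same gene (0.958) and then Wnt5a (0.938). For Hoxd1 they were Spag9 (0.958), Nr6a1 (0.954) and Cd99l2 (0.951), for Hoxd8 Mnx1 (0.930), Gm15050 (0.920) and Rbmx (0.916), and for Hoxd9 M1ap (0.945), Hoxb3os (0.943) and Pdgfrb (0.939). Such values are not rare, since 139 of 17298 genes were over 0.9 with Hoxd1, 84 with Hoxd9, 37 with Hoxd4, 19 with Hoxd3 and 13 with Hoxd8. Hoxd13 had 0 genes over 0.8, and Egr2 was the nearest (0.732). Among members, r was 0.953 for Hoxd3 with Hoxd4, which share exons, 0.743 to 0.893 for the other pairs without Hoxd13, and 0.205 to 0.316 for pairs with Hoxd13.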

How the data were processed

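Poly(A) RNA of 24 libraries (8 groups of 3 lines) was sequenced with single-end reads. Per the paper's methods and the submitters' processing notes, the authors trimmed reads with Trim Galore 0.4.4, aligned them with HISAT2 2.0.5 to GRCm38.p6 and quantified genes in SeqMonk. The deposited counts are raw reads per gene. The deposited log2 RPKM values of 39 Hox genes are scaled by library total and transcript length, and genes without counts take the value of 0.877 to 0.927 counts. How overlapping genes were counted, and which libraries used the stranded kit, is not given in the sources used here. Reads of hybrid lines were aligned to the reference of 1 parent. A further log2 table of other factors and the 8 columns of group means were not used, and 0 columns of single samples were left over.

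Totals were 7.10 M to 20.8 M counts (M, units of 1000000). Counts were tested in R 4.3.3 with edgeR 4.0.16 (TMM factors, filterByExpr by group, quasi-likelihood test), with Benjamini-Hochberg adjustment over all genes and a threshold of 0.05, using only the groups compared. CPM were scaled with TMM factors. SE was the log2 change divided by the root of F. The procedure was tested on simulated data. Alternatives were other scaling, no filter, DESeq2 1.42.0, one fit of 24 libraries, a replicate block, thinning to the smallest library, leaving out each library (90 fits) and, chosen after seeing the data, both genotypes in one fit. The named genes were the 9 members, their paralogues, flanking genes within 1 Mb that overlap a member or were called in a day step in both genotypes, 3 lists (signals, cofactors, Polycomb and Trithorax), and the 3 genes most like each member, both averaging 10 counts or more in some group. Members and lists were chosen with earlier results of these data known.

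The days of a line are paired, since they are the same cell line. The residuals of 1 line on 2 days correlated at -0.046 to 0.209 over 18 pairs (median 0.0295). Lines with the same number in both genotypes are different lines. Coordinates matched GENCODE vM21 for 99.5% of 35545 identifiers. Promoter sequences of RefSeq matched all 9 members by symbol. Figures were drawn with matplotlib 3.10.9. Some genes of the lists and paralogue groups are not reported here.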

Additional observations from a re-analysis of the deposited data

How the results depend on the processing

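The changes of Hoxd1 from day 0 to day 2 in het and of Hoxd4 and Hoxd9 from day 2 to day 2.5 in het, and that of Hoxd4 from day 2.5 to day 3 in wt, were called in every fit that left out 1 library, though each is a member that had entered the test through its later day only. Counts of called members moved with the settings as follows. From day 0 to day 2 in wt, where 0 were called, 1 was called with no filter beyond 1 count, with DESeq2, in one fit of all 24 libraries and with both genotypes in one fit. In het, where 1 was called, 2 were called with no filter and in the fit of 24 libraries and 0 after thinning to the smallest library. From day 2 to day 2.5 in wt, where 1 was called, 2 were called in the fit of 24 libraries, 0 after thinning and 3 with both genotypes in one fit. In het, where 3 were called, 2 were called with DESeq2 or after thinning and 4 in the fit of 24 libraries. From day 2.5 to day 3 in wt, where 3 were called, 1 was called after thinning, 2 in the fit of 24 libraries and 4 with both genotypes in one fit. In het, where 1 was called, 2 were called with DESeq2 size factors, library totals alone or DESeq2, 3 with no filter or the replicate block, 4 with both genotypes in one fit and 0 in the fit of 24 libraries or after thinning. Thinning keeps fewer counts; otherwise the cause was not tested.

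Leaving out 1 library gave 0 to 1 called members from day 0 to day 2 in wt and 1 to 2 in het, 0 to 1 and 2 to 4 from day 2 to day 2.5, 1 to 3 and 0 to 2 from day 2.5 to day 3, and 0 to 1 between genotypes with days summed, always on 3 lines or fewer a group. Some values that were not called changed sign. With the replicate block, which fits line numbers as a term, Hoxd8 in het against wt on day 3 was -0.018 and Hoxd13 from day 2 to day 2.5 in wt was 0.242. The block changed no other call except those of Hoxd4 and Hoxd8 from day 2.5 to day 3 in het. Thinning put Hoxd3 in het against wt on day 3 at 0.14, and one fit of both genotypes put Hoxd13 at 0.14 both from day 2 to day 2.5, where wt alone was below 0, and from day 2.5 to day 3, where het alone was below 0.

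Without 1 library, the log2 difference of het against wt ranged from -0.041 to 1.09 for Hoxd13 on day 2, from -0.76 to 0.13 for Hoxd3 and -0.21 to 0.19 for Hoxd8 on day 3, and, with days summed, from -0.17 to 0.48 for Hoxd3, -0.41 to 0.10 for Hoxd4 and -0.055 to 0.36 for Hoxd8. The change of Hoxd13 ranged from -0.25 to 0.87 in wt and -0.067 to 0.24 in het from day 0 to day 2, from -0.61 to 0.51 in wt from day 2 to day 2.5, and from -0.29 to 0.27 in het from day 2.5 to day 3, where Hoxd9 ranged from -0.14 to 0.28. The interaction of genotype with the step to day 2.5 ranged from -0.63 to 0.16 for Hoxd1, -1.07 to 0.30 for Hoxd9 and -0.15 to 0.99 for Hoxd13, and that with the step to day 3 from -0.62 to 0.13 for Hoxd1. DESeq2 gave no adjusted p for Hoxd13 on day 0 and Hoxd8 on day 2 between genotypes. At the totals of these libraries a level under 0.144 to 0.422 CPM is within 3 counts, which limits Hoxd3, Hoxd10, Hoxd11 and Hoxd12.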
